A study of Mus musculus with 22 samples.

Results

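The endoplasmic reticulum (ER) chaperone genes described here are 10 genes that fold, clear or respond to misfolded protein in the secretory pathway: Hspa5, Hsp90b1, Pdia4, Pdia6, Calr, Sdf2l1, Dnajb9, Herpud1, Hyou1 and Creld2. They were taken by gene symbol, a list drawn up with earlier results of these libraries known, and make up 10 of the 18487 genes listed. All 10 were among the 17275 genes that passed the filter on low values. RNA was measured in mouse E14 embryonic stem cells (ESCs), an established line, by sequencing of oligo-dT selected messenger RNA. The labels give 11 groups of 2 libraries, 22 in all, and the comparison asks which transcripts change with each compound. Of the groups, 10 carry a compound name (Bromosporine, Chaetocin, CPTH2, DZNep, Garcinol, IOX1, MS023, OICR, UNC0379 and Valproate), and NC, whose label names no compound, is the reference. The labels give no dose, exposure time or vehicle, and none of the groups carries a labelled genetic change. The study's methods describe E14 cells grown with serum and LIF without mentioning the compounds, and nothing states whether the libraries of a group came from separate cultures, so p-values measure only the spread between these libraries.

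In the ER, chaperones of the HSP70 and HSP90 families, disulfide isomerases and lectin chaperones fold newly made secretory proteins. When unfolded proteins build up, the sensors ATF6, IRE1 and PERK start the unfolded protein response (UPR). ATF6 and the spliced form of XBP1, which IRE1 makes, act on chaperone genes, whereas PERK raises ATF4, which acts mainly on genes of amino acid supply, redox balance and cell death.

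Promoter sequences are shown because both routes have known binding motifs and the members did not all move together in these libraries. RefSeq promoters of GRCm38.p6, each running from 250 bases before the start site to 50 bases after it, were found for 9 of the 10 genes, all but Hyou1. Both strands of each 300-base window were searched for the ER stress element (ERSE, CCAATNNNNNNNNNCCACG), for ERSE-II (ATTGGNCCACG), for the XBP1 motif TGACGTGG and for TGATGCAA, a composite site of C/EBP and ATF proteins. None of these motifs overlapped another in the members. ERSE was present in 5 of the 9 promoters and in 0.119% of all 32851 promoters. ERSE-II was found in the Herpud1 promoter alone among the 9 and in 0.0365% of all promoters. The composite site was likewise found among the members only in Herpud1, and in 0.895% of all promoters. TGACGTGG was in 0 of the 9 and in 0.676% of all. Pdia4, Dnajb9 and Sdf2l1 held none of these letters in the window. The 250 bases before the start site follow for Hspa5 (chr2:34771840-34772089, plus strand) and for Herpud1 (chr8:94386179-94386428, plus strand), with the motifs in capitals.
Hspa5: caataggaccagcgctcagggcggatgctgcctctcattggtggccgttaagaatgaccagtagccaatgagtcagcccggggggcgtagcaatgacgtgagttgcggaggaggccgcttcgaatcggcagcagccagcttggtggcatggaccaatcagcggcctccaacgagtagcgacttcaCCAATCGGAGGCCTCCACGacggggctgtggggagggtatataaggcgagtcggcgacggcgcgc
Herpud1: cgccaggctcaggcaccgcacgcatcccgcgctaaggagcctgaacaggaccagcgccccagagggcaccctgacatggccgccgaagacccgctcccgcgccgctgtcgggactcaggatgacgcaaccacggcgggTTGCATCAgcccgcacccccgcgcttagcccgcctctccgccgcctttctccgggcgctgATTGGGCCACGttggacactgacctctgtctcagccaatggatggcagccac
In Herpud1, the first capitals are the composite site on the reverse strand, from -112 to -105, and the second are ERSE-II, from -52 to -42. The ERSE of Hspa5 lies from -65 to -47.

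The other ERSE copies are shown with 10 bases on either side and the motif in capitals. They lie at chr8:84847065-84847103 (Calr, minus strand), chr10:86705628-86705666 and chr10:86705523-86705561 (Hsp90b1, minus strand), chr12:17266481-17266519 (Pdia6, plus strand) and chr15:88819510-88819548 (Creld2, plus strand). Each is written in the direction of its gene, so a motif on the reverse strand starts with CGTGG.
Calr: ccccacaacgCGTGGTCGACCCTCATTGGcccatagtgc
Hsp90b1, first copy: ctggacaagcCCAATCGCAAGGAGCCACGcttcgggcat
Hsp90b1, second copy: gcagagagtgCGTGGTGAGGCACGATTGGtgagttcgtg
Pdia6: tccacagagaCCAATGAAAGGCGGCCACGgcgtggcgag
Creld2: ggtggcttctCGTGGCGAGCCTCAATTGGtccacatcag
A match is a description of these letters only, since binding was not measured here. The motifs and the genes were both chosen for their known part in the same response. The shares beside all promoters are thus no independent test of either.

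Levels below are normalized read counts, a scale on which every library had the same median (409) and largest value (221616), so that depth cannot be read from them. The ESC markers Pou5f1 and Sox2 were high in all 22 libraries (25663 to 39262 and 10935 to 18762), as the label says. Others of the 10 ESC markers varied more, such as Nanog (31970 to 123367) and Utf1 (823 to 5749). The 10 summed to 207921 and 203729 in NC, 280195 and 268055 with DZNep and 220134 and 237698 with Valproate. With DZNep, Utf1 (1.91) and Zfp42 (1.15) rose past the limma threshold given below, which 11.4% of all genes passed in either direction. Of the 10, 3 changed downward with DZNep (lowest -1.02). Utf1 also passed with Valproate (1.32), Bromosporine (1.55) and OICR (1.39). Of 10 markers of primitive and parietal endoderm, 8 were listed, and their summed level ran from 9180 to 21058 (19076 and 13682 in NC, 21058 and 14988 with DZNep, 19738 and 14802 with Valproate). The sum came mostly from the matrix genes Lama1, Sparc and Lamb1, which reached 12149, 10935 and 3502, while the defining factors Gata4, Gata6 and Sox17 reached 165, 367 and 92. The 3 listed markers of visceral endoderm summed to 13 to 196. Of 6 fibroblast markers, Dcn was listed at 0 in all 22 libraries and the summed level ran from 27 to 1874. That sum was 528 and 1368 in NC, 1612 and 1874 with DZNep and 1357 and 1091 with Valproate. Of the 5 fibroblast markers tested, 5 changed upward with DZNep, and 3 upward and 2 downward with Valproate. Thy1, a surface marker of fibroblasts and other cells, rose in limma from 12 and 11 in NC to 358 and 303 with Valproate (4.73, adjusted p = 3.0e-05) and to 66 and 64 with DZNep (2.40, adjusted p = 0.00115). The part of these markers in the results below was not tested.

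The members differed widely in level. Per kilobase of the longest coding transcript in GENCODE M21, the NC means were 8048 for Calr, 4249 for Pdia6, 3635 for Hspa5, 3292 for Hsp90b1, 1781 for Pdia4 and 1680 for Hyou1. They were lower for Sdf2l1 (1047), Creld2 (969), Herpud1 (595) and Dnajb9 (251). Hsp90b1 and Pdia6 overlap exons of genes on the opposite strand (1810014B01Rik and Atp6v1c2), and strand-specific counting is not stated, so reads of these pairs cannot be told apart. Exons annotated as Gm15344 and Gm25745 also lie within Hsp90b1 on its own strand.

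**Figure D1:**
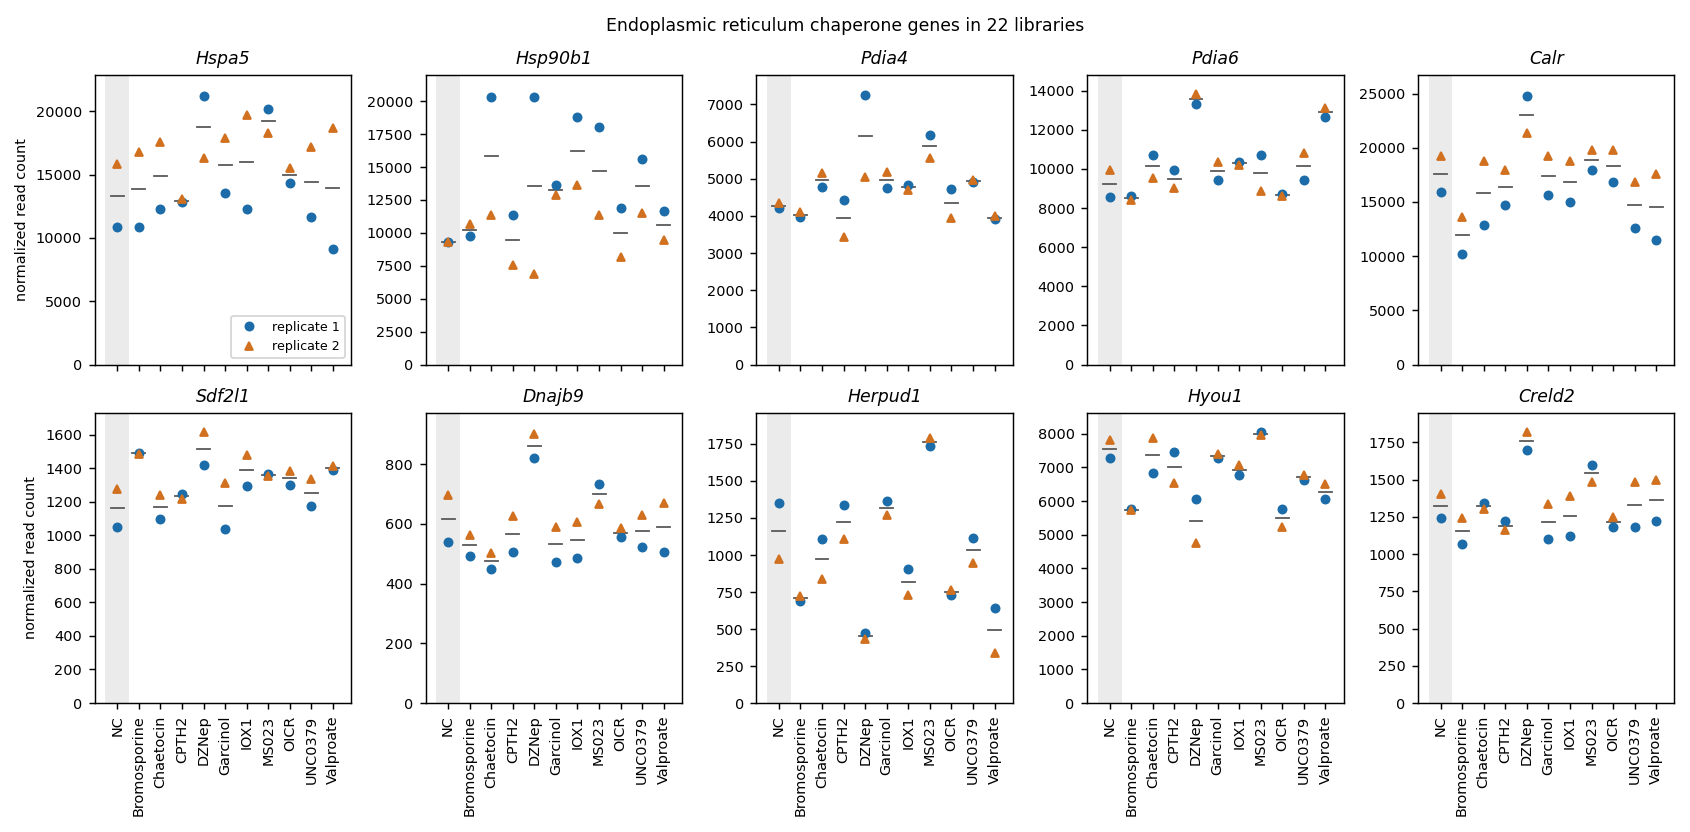
Normalized read count (vertical axis, from 0) of each gene in the 2 libraries of every group (horizontal axis), with circles for replicate 1, triangles for replicate 2 and a bar at the group mean. NC is shaded. Herpud1 has its lowest values with DZNep and Valproate (336 to 644) and its highest with MS023 (1738 and 1793), whereas Pdia6, Creld2 and Dnajb9 have their highest means with DZNep.

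A gene was called in limma, a linear model fitted across all genes, when its fold was over 2 and its p, adjusted by the Benjamini-Hochberg method, was under 0.05. Changes are given as log2(value + 1), compound minus NC. Of the 10 members, Herpud1 fell with DZNep and with Valproate, and no other member was called with any compound. Among all tested genes, 11.4% were called with DZNep and 5.28% with Valproate, so that 1 member in 10 is near the background in both. With MS023, 0 members were called against 0.973% of all genes, with Bromosporine 0 against 3.34%, and with OICR 0 against 0.388%. At an unadjusted p under 0.05 in limma, the members counted 2, 4 and 2 with these compounds. The share of all genes at this threshold is not given here. Counts at an unadjusted p, here and below, are thus not set against a background. No member was called, or had an unadjusted p under 0.05, with IOX1 (0.116% of all genes called), Chaetocin (0.0174%), CPTH2 (0.00579%), Garcinol (0.00579%) or UNC0379 (0%).

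The adjusted p alone was passed by 5 members with DZNep, against 23.6% of all genes. These were Herpud1, Hyou1, Pdia4, Pdia6 and Sdf2l1. With Valproate it was passed by 2 members, Herpud1 and Pdia6, against 10.3% of all genes. No member passed it with Bromosporine (5.4% of all genes), MS023 (2.21%), OICR (0.637%), IOX1 (0.127%), Chaetocin (0.0174%), CPTH2 (0.00579%), Garcinol (0.00579%) or UNC0379 (0%).

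**Figure D2:**
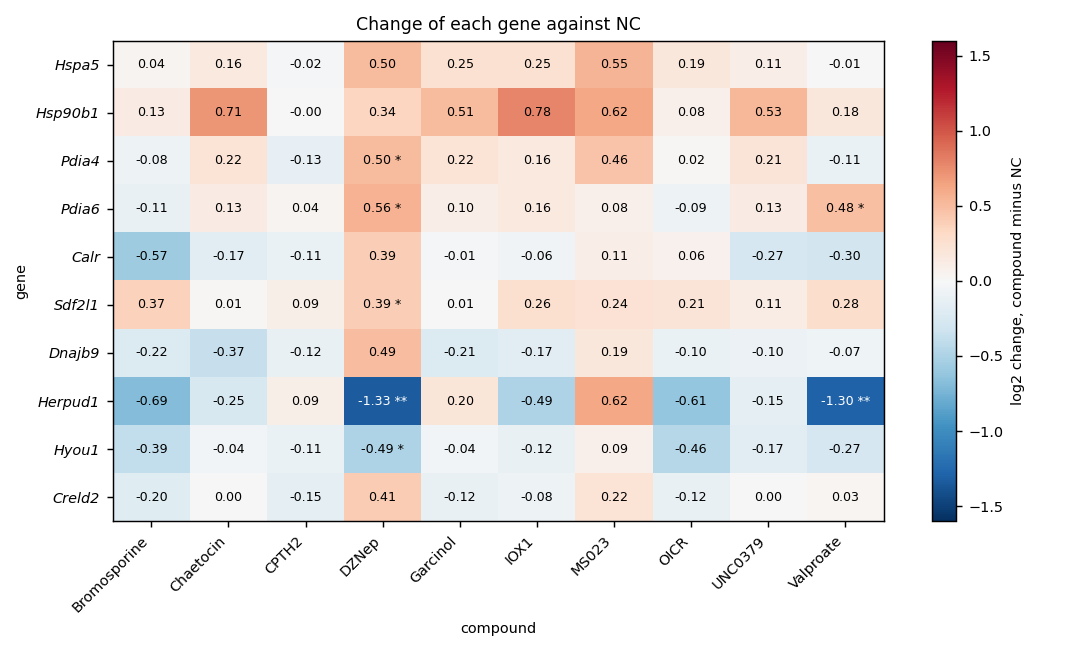
Map of the log2 change of each gene (rows) against NC for each compound (columns), blue for lower and red for higher, with the value in each cell. A double asterisk marks an adjusted p under 0.05 with a fold over 2, and a single asterisk an adjusted p under 0.05 with a smaller fold. The 2 double asterisks are Herpud1 with DZNep (-1.33) and with Valproate (-1.30), and the DZNep column is positive for 8 of 10 genes.

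Among the chaperones of the HSP70 and HSP90 families, Hspa5 encodes BiP, the main HSP70 of the ER lumen. Its normalized read count was 10880 and 15816 in NC, 21208 and 16296 with DZNep, and 20208 and 18252 with MS023. Both compounds lay above both NC libraries, but the changes of 0.50 and 0.55 (SE 0.35 each) had adjusted p of 0.319 and 0.514 in limma. Over all 22 libraries Hspa5 ran from 9140 (Valproate replicate 1) to 21208 (DZNep replicate 1), and its replicates differed by as much as its groups.

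Hsp90b1 encodes GRP94, the HSP90 of the ER. It was 9300 in both NC libraries, which is the lowest group mean, and the equality can come from a normalization that gives libraries a common set of values. The libraries with DZNep read 20305 and 6868, the latter being the lowest of all 22, and lay on either side of NC. Those with Chaetocin read 20305 and 11384, with IOX1 18784 and 13630, and with MS023 18006 and 11384. None of these differences was past the threshold, the largest being 0.78 with IOX1 (SE 0.43), and for DZNep the sign turned with replicate 1 left out (-0.44).

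Hyou1 encodes GRP170, a large HSP70-like protein that exchanges nucleotide on BiP. It was 7281 and 7804 in NC and 6054 and 4742 with DZNep. Both DZNep libraries were below both NC libraries, and the difference of -0.49 (SE 0.11) passed the adjusted p in limma (0.00686) but not the fold. Without DZNep replicate 2 it was -0.32 (adjusted p = 0.0613). OICR read 5756 and 5222 (-0.46, adjusted p = 0.0984) and Bromosporine 5756 and 5719 (-0.39, adjusted p = 0.0645), without passing. Hyou1 was, with Herpud1, 1 of 2 members whose change with DZNep was negative.

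The disulfide isomerases Pdia4 and Pdia6 form and rearrange disulfide bonds in client proteins. Pdia6 was 8556 and 9926 in NC, 13342 and 13845 with DZNep, and 12675 and 13125 with Valproate. These 4 libraries were the highest of the 22 for the gene. In limma, the differences were 0.56 (SE 0.11, adjusted p = 0.0027) and 0.48 (SE 0.11, adjusted p = 0.0136), below a fold of 2. The value with DZNep passed with each library left out in turn, whereas that with Valproate had an adjusted p of 0.0568 to 0.134 without either Valproate library or NC replicate 1 (log2 difference 0.51, 0.46 and 0.38). Pdia4 was 4206 and 4338 in NC, 7245 and 5060 with DZNep, and 6183 and 5562 with MS023. All libraries of both compounds lay above NC. The difference passed the adjusted p for DZNep (0.50, SE 0.15, adjusted p = 0.0289) and not for MS023 (0.46, SE 0.15, adjusted p = 0.159). The DZNep value no longer passed without DZNep replicate 1 (0.24), NC replicate 1 (0.48) or NC replicate 2 (0.53). With Valproate, where Pdia6 was high, Pdia4 was 3916 and 3999, below both NC libraries (-0.11, SE 0.15).

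Calr encodes calreticulin, a lectin chaperone that binds sugar chains on new glycoproteins. It was 15924 and 19230 in NC, 24752 and 21314 with DZNep and 10193 and 13614 with Bromosporine. The groups did not overlap, DZNep lying above NC and Bromosporine below. The differences of 0.39 (SE 0.25, adjusted p = 0.267) and -0.57 (SE 0.25, adjusted p = 0.219) did not pass in limma.

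The co-chaperones Sdf2l1 and Dnajb9 (ERdj4) act on the BiP cycle. Sdf2l1 was 1047 and 1274 in NC, 1417 and 1617 with DZNep, and 1491 and 1485 with Bromosporine, with no overlap with NC in either. DZNep passed the adjusted p in limma (0.39, SE 0.13, adjusted p = 0.0474), and Bromosporine did not (0.37, SE 0.13, adjusted p = 0.136). The former no longer passed without either DZNep library (0.49 and 0.29) or NC replicate 1 (0.25). Dnajb9 was 540 and 695 in NC and 819 and 902 with DZNep, its 2 highest libraries (0.49, SE 0.19, adjusted p = 0.0762). Creld2, a small ER protein that answers to ER stress, was 1244 and 1404 in NC, 1699 and 1817 with DZNep and 1601 and 1482 with MS023. Its differences were 0.41 (SE 0.15, adjusted p = 0.0639) and 0.22 (SE 0.15, adjusted p = 0.55).

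Herpud1 encodes a membrane protein of ER-associated degradation, which removes misfolded proteins from the ER. It had the widest range of the 10 members, from 336 to 1793, a ratio of 5.34 against 1.56 to 2.96 for the others. In NC it was 1351 and 970. With DZNep it was 474 and 435, and with Valproate 644 and 336, so that neither compound overlapped NC. The fall was -1.33 with DZNep (SE 0.25, adjusted p = 0.00189) and -1.30 with Valproate (SE 0.25, adjusted p = 0.00529) in limma. Taken between libraries of the same replicate number, the differences were -1.51 and -1.16 with DZNep and -1.07 and -1.53 with Valproate. The call with Valproate was lost without Valproate replicate 2 (-0.83) and without NC replicate 1 (-1.06, adjusted p = 0.0646, over all alternatives 0.000512 to 0.267). When the other 9 compounds were left out of the fit, neither fall passed (adjusted p = 0.0927 and 0.267), and the same fit ended the other calls against NC named below except that of Psat1. As in any bulk sample, fewer cells with the transcript and less transcript per cell cannot be told apart.

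In the remaining groups Herpud1 was 1738 and 1793 with MS023, 1363 and 1267 with Garcinol and 1340 and 1109 with CPTH2. It was 1117 and 948 with UNC0379, 1105 and 835 with Chaetocin and 903 and 732 with IOX1. With OICR it was 732 and 764, and with Bromosporine 691 and 726. The MS023 libraries were the highest of all 22, yet the difference from NC (0.62, SE 0.25, adjusted p = 0.25) did not pass. By mean log2 value the order was MS023, Garcinol, CPTH2, NC, UNC0379, Chaetocin, IOX1, OICR, Bromosporine, Valproate and DZNep. No 2 neighbours in it differed past the threshold, the lowest adjusted p being 0.124 for Bromosporine and Valproate, and the same held for neighbours in the order of each other member (lowest adjusted p 0.065, for Pdia6).

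Compared directly between compounds in limma, Herpud1 was called in 13 of the 45 pairs, with p-values adjusted over genes within a pair and not over the pairs. The other 9 members were called in 0 pairs, although 7 of them had an unadjusted p under 0.05 in 7 to 23 of all 55 pairs of groups. By adjusted p alone, Herpud1 differed in 15 of the 45 pairs, Pdia6 in 13, and Dnajb9 and Hyou1 in 8 each. Pdia4 did so in 6, Creld2 in 5 and Calr in 1. Differences of smaller fold were thus not particular to Herpud1, and the share over all genes at this threshold is not given. Of all tested genes, between 2.14% and 12.3% were called in the 13 pairs where Herpud1 was called. On the log2 scale, Herpud1 was higher than with DZNep by 1.96 with MS023 (10.9% of all genes called), 1.53 with Garcinol (10.5%) and 1.18 with UNC0379 (9.17%). The difference of DZNep from CPTH2 was -1.42 (11.4%) and from Chaetocin -1.08 (12.3%). Valproate fell below the same compounds, with -1.92 against MS023 (8.43%), -1.50 against Garcinol (6.38%), -1.39 against CPTH2 (5.94%), -1.14 against UNC0379 (5.68%) and -1.04 against Chaetocin (7.26%). MS023 stood above Bromosporine by 1.32 (7%) and above IOX1 by 1.12 (2.14%), and OICR was below MS023 (-1.24, 3.21%).

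Most members were higher with DZNep than in NC. Of all 10, 8 had a positive change and 7 had both DZNep libraries above both NC libraries, while Herpud1 and Hyou1 had both below. Among all tested genes, 26.5% lay above both NC libraries in this way and 32.4% below. The members' median change was 0.40, with the median over all genes at -0.036. Only 3 of the positive changes passed the adjusted p, and none a fold of 2. With Valproate 4 changes were positive and 6 negative (median -0.040, all genes -0.023).

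With MS023 all 10 changes were positive, from 0.080 (Pdia6) to 0.62 (Herpud1), with a median of 0.23 beside -0.014 over all genes. Both MS023 libraries lay above both NC libraries for 7 of 10 members, against 21.8% of all genes, and Pdia6, Calr and Dnajb9 overlapped. None of the 10 passed the test. The signs of Pdia6 and Calr turned in some alternatives, for both with NC replicate 1 left out.

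No UPR regulator was called. In a list of 10 sensors and transcription factors, 0 were called with DZNep, with Valproate or with MS023, and 4, 2 and 2 had an unadjusted p under 0.05 in limma. Xbp1, whose product acts on chaperone genes, was 2051 and 2194 in NC and 1097 and 1183 with DZNep (-0.90, SE 0.26, adjusted p = 0.0251). Ern1, which encodes IRE1, was 960 and 735 in NC and 431 and 579 with DZNep (-0.75, SE 0.18, adjusted p = 0.00815). Both genes were below NC with DZNep in all libraries, on the side opposite to most of the chaperone genes, and passed the adjusted p but not the fold. Lower values than NC were not particular to DZNep, though the others did not pass. Ern1 had a negative change with every compound (511 and 529 with IOX1, -0.69), and Xbp1 with every compound but MS023 (0.016). Xbp1 was below both NC libraries with OICR (-0.68), IOX1 (-0.67) and Bromosporine (-0.66), among others. Xbp1 no longer passed with any 1 of these 4 libraries left out (-0.95 to -0.84), nor Ern1 without DZNep replicate 1 (-0.54) or NC replicate 1 (-0.56). Spliced and unspliced Xbp1 are not separated in a gene-level table.

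Atf4, whose product PERK can raise, was 13581 and 10004 in NC, 8370 and 4496 with DZNep, 9086 and 4517 with Valproate and 17952 and 16371 with MS023. The differences of -0.93 (adjusted p = 0.0512), -0.86 (adjusted p = 0.111) and 0.56 (adjusted p = 0.462) did not pass in limma. Those of Atf6, which encodes another sensor, were -0.23 with DZNep and 0.48 with MS023 (adjusted p = 0.223 and 0.088). Eif2ak3, which encodes PERK, differed by 0.22 with DZNep (adjusted p = 0.452). Ddit3, which encodes CHOP, differed by -1.38 with DZNep and -1.62 with Valproate, with an SE of 0.85 in each case.

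Several listed targets of ATF4 fell with DZNep and with Valproate. They are called PERK-ATF4 targets after the route described above. The activity of PERK was not measured, and whether PERK took part was not tested. Of 10 listed genes, 5 fell and 0 rose with DZNep (11.4% of all genes called in either direction), with a median of -1.18 beside -0.036 over all genes. Trib3, an inhibitory pseudokinase, was 3919 and 2805 in NC and 1156 and 771 with DZNep (-1.81, SE 0.30, adjusted p = 0.000733). Chac1, which degrades glutathione, went from 1526 and 1195 to 205 and 129 (-3.05, SE 0.51, adjusted p = 0.000841). Psat1, an enzyme of serine synthesis, was 24778 and 22956 in NC and 7821 and 7413 with DZNep (-1.65). Slc7a11, the cystine transporter, and Atf3, a stress transcription factor that the naming rule left out, fell by 1.17 and 1.20. With Valproate 3 of the 10 fell, Trib3 (-2.10), Chac1 (-1.92) and Atf3 (-1.27), against 5.28% of all genes called in either direction, and the median was -0.83 beside -0.023. The call of Slc7a11 was lost without NC replicate 2 (-0.88), and those with Valproate of Chac1 without Valproate replicate 2 (-0.75), NC replicate 1 (-1.74) or NC replicate 2 (-2.09) and of Atf3 without Valproate replicate 2 (-0.74) or NC replicate 1 (-1.18). With MS023 the median was 0.58, 0 were called, and 3 had an unadjusted p under 0.05 in limma. The list was written with earlier results of these libraries known.

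**Figure D3:**
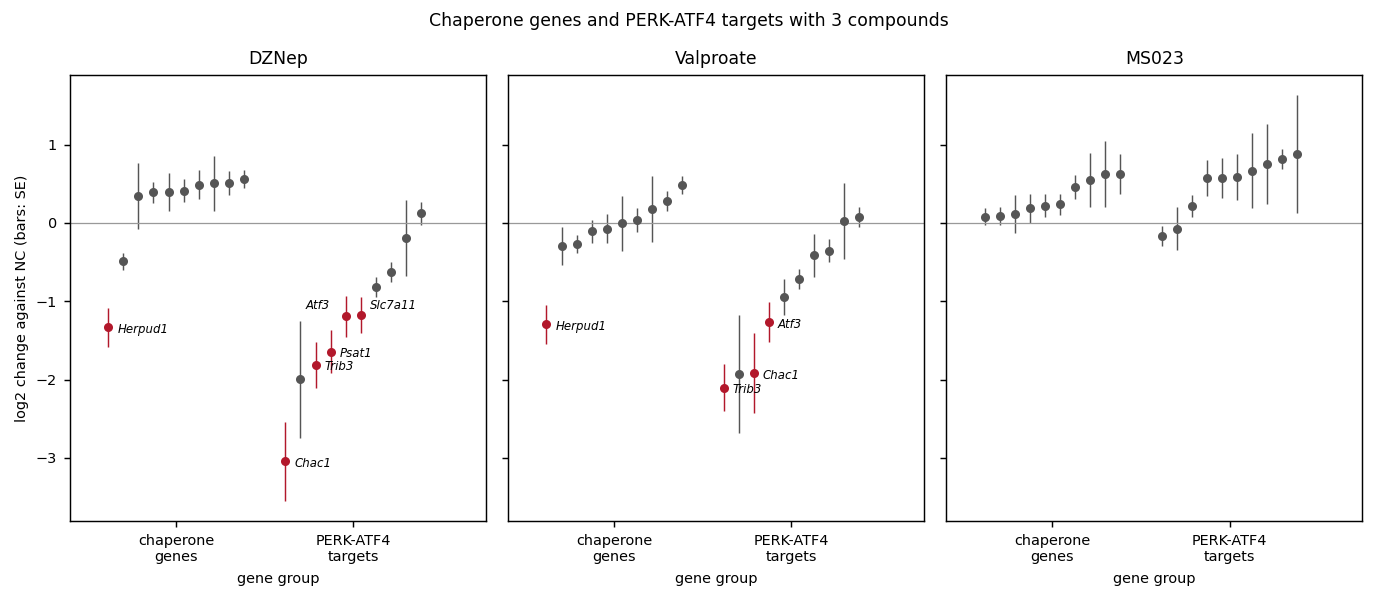
Log2 change against NC (vertical axis, bars for the SE of the fit) of the 10 chaperone genes and of the 10 PERK-ATF4 targets (horizontal axis) with DZNep, Valproate and MS023, each point a gene and red points the called ones. With DZNep, 8 of the chaperone genes lie above 0, whereas Herpud1 (-1.33) and Hyou1 (-0.49) lie within the range of the PERK-ATF4 targets (-3.05 to 0.12).

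Across the 22 libraries, Herpud1 tracked these targets more closely than the other members did. Its r with the mean z-score of the 10 targets was 0.96 (Spearman's rho 0.95). The r was 0.95 within the 11 libraries numbered 1, 0.98 within the 11 numbered 2, and 0.95 without the libraries farthest from the median, DZNep replicate 2 and Valproate replicate 2. Its place from the top for this r was 3 among 15817 genes above 0 in all libraries, with the 10 targets and the other members left out. Hyou1 had an r of 0.68, Pdia6 of -0.62 and Sdf2l1 of -0.57, and the others lay between -0.41 and 0.22. These are descriptions over libraries that share groups and normalization, and the relation was chosen after the values had been seen.

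**Figure D4:**
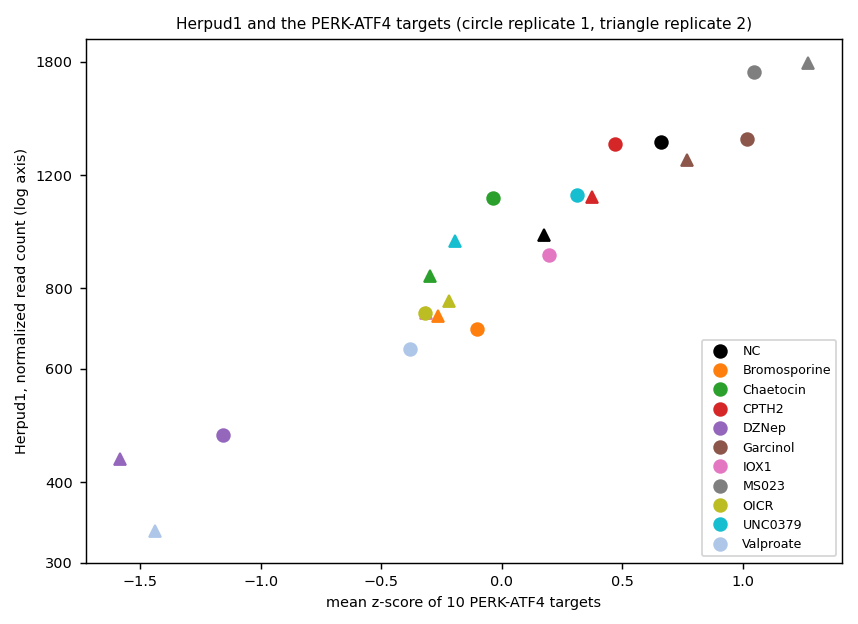
Herpud1 normalized read count (vertical axis, log scale) against the mean z-score of 10 PERK-ATF4 targets (horizontal axis) in 22 libraries, coloured by group, with circles for replicate 1 and triangles for replicate 2. The libraries form 1 rising band (r = 0.96), with DZNep and Valproate at the low end and MS023 at the high end.

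Among themselves, the members were weakly related. Over the 45 pairs of members, the median r in 22 libraries was 0.24, from -0.60 to 0.86, and 32 were positive. The median r with the other members was highest for Creld2 (0.59) and Dnajb9 (0.50), was 0.42 for Hspa5, and was lowest for Herpud1 (-0.14), Hyou1 (0.07) and Hsp90b1 (0.10). Centred within replicate number, the same medians were 0.62 for Creld2, 0.57 for Hspa5 and 0.55 for Dnajb9 and for Pdia4, and lowest for Herpud1 (-0.04), Hyou1 (0.11) and Sdf2l1 (0.18), with Hsp90b1 at 0.24. The genes most like the members' mean z-score were Trim6 (r = 0.86), Gm44660 (0.85), Rexo2 (0.85), Selenos (0.84) and Hap1 (0.84), out of 15832 ranked over 22 libraries. With each gene centred within its replicate number, they were Selenos (0.88), Trim6 (0.86), Rexo2 (0.86), Gm44660 (0.85) and Toe1 (0.84). Selenos encodes a selenoprotein of the ER membrane that takes part in ER-associated degradation.

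In the other lists of ER folding, 0 to 2 genes each were called with DZNep, Valproate or MS023, beside 11.4%, 5.28% and 0.973% of all genes. Of 16 genes of ER-associated degradation, 1 was called with DZNep, Derl3, a membrane component of that pathway, which rose from 150 and 224 to 582 and 676 (1.77, SE 0.37, adjusted p = 0.00369 in limma). That share is not above the background, the list's median was -0.077, and the call was lost without NC replicate 1 (1.48, adjusted p = 0.0518). Of 7 ER prolyl isomerases, which turn proline bonds in folding proteins, Fkbp10 rose with DZNep from 58 and 89 to 483 and 573 (2.85, adjusted p = 0.000253). Fkbp10 fell with Valproate to 12 and 33 (-1.79) and with Bromosporine to 15 and 22 (-1.93). Fkbp7 fell with DZNep to 62 and 79 from 152 and 169 (-1.18), and with Valproate to 87 and 68 (-1.05). The call of Fkbp10 was lost with Valproate without its replicate 1 (-1.10) or NC replicate 2 (-1.49), and with Bromosporine without its replicate 1 (-1.66) or NC replicate 2 (-1.62). That of Fkbp7 with Valproate was lost without Valproate replicate 2 (-0.87) or NC replicate 2 (-0.97). Fkbp10 acts on collagen, and the fibroblast collagen gene Col1a1 also rose with DZNep, from 24 in both NC libraries to 327 and 228, and its part was not tested.

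Of 13 further disulfide and oxidative folding enzymes, Ero1l, the oxidase that recharges disulfide isomerases, rose with MS023 from 3547 and 2478 to 6785 and 6847 (1.20, SE 0.23, adjusted p = 0.0174 in limma). The call was lost with any 1 of these 4 libraries left out (0.94 to 1.46). The list's median was 0.046 with MS023 and -0.22 with DZNep. None of 16 other co-chaperones and lectin chaperones was called with DZNep (4 at an unadjusted p under 0.05, median -0.17), and none of 16 genes of translocation and signal peptide cleavage (3 at an unadjusted p under 0.05, median 0.15). For chaperones outside the ER, the medians with DZNep were 0.27 over 10 cytosolic heat shock genes (0 called, 3 at an unadjusted p under 0.05) and -0.040 over 6 mitochondrial chaperones (0 called, 2 at an unadjusted p under 0.05). With Valproate, Hspa4l, a cytosolic HSP110 protein, rose to 347 and 341 (1.32), a call lost without NC replicate 1 (1.15, adjusted p = 0.0597).

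The replicate number was tied to the level of most members, as to that of 52.6% of all tested genes. In a limma fit with group as a term, 7 of 10 members passed the adjusted p for number 2 against number 1. That is near the share over all genes, and 0 members also passed a fold of 2, against 4.04% of all genes. Calr was higher in number 2 in 10 of 11 groups (0.30, SE 0.06, adjusted p = 0.00142). Hspa5 was higher in 9 of 11 (0.36, SE 0.11, adjusted p = 0.0161), and Hsp90b1 lower in 9 of 11 (-0.48, SE 0.13, adjusted p = 0.00598). Dnajb9 (0.22), Creld2 (0.14) and Sdf2l1 (0.13) were also higher in number 2, and Herpud1 was lower (-0.24). For Hspa5 and Calr this difference is close to the size of the changes with DZNep, whereas Pdia4, Pdia6 and Hyou1 did not pass (-0.09, 0.00 and -0.02). The labels do not say what the number stands for.

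**Figure D5:**
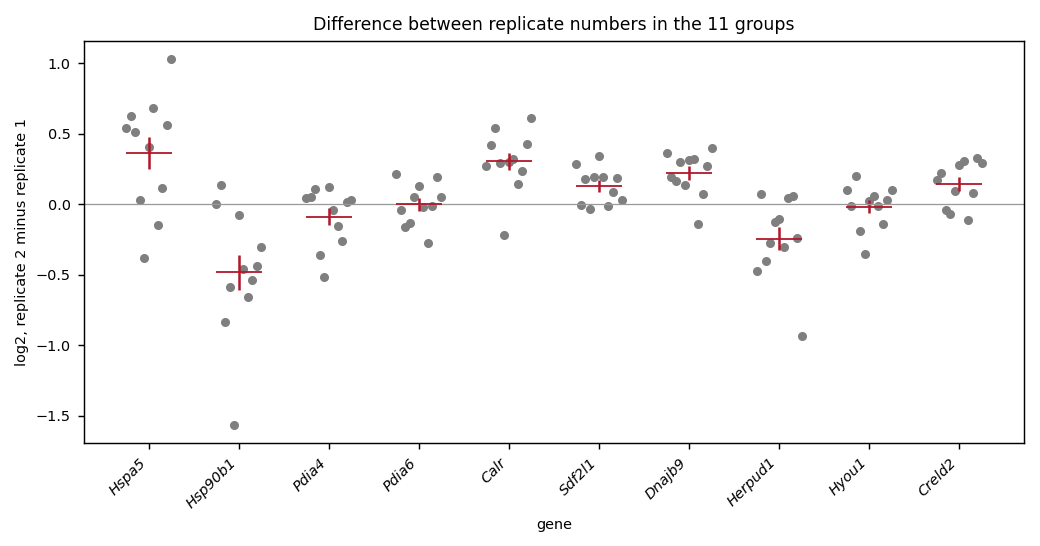
Log2 difference of replicate 2 minus replicate 1 (vertical axis) for each gene (horizontal axis), with 1 grey point for each of the 11 groups and a red bar at the fitted difference with its SE. Hspa5, Calr and Dnajb9 lie mostly above 0 and Hsp90b1 mostly below, at -0.48 in the fit.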

How the data were processed

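RNA was measured in 22 libraries of E14 cells, and groups and replicate numbers came from the sample titles. The deposited values are scores, namely read counts per gene that the authors normalized and rounded to whole numbers. Bowtie2 2.2.5, RSEM and the mm10 build are named in the submitters' processing notes, and the study's methods, which do not mention the compounds, give full-quantile normalization with EDASeq. That step gives the libraries a common distribution, hides depth (the totals ran from 38403767 to 38419709), removes shifts shared by most genes and leaves identical values between libraries. No interval that needs depth was given. A second deposited table of group means was not used.

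Values were analysed as log2(value + 1) with limma 3.58.1 in R 4.3.3 after genes below 10 in all or all but 1 of the 22 libraries were left out. The model had 11 group means, variances with a trend and 11 residual degrees of freedom. P-values are two-sided and were adjusted by the Benjamini-Hochberg method over all tested genes within a contrast. The fit was tested on simulated data. Positions came from GENCODE M21 and promoters from RefSeq. Figures used Python 3.11.15.

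The members and all gene lists were chosen with earlier results of these data known. From each list, at most 4 called genes per compound were named by lowest adjusted p, and the 6 main UPR regulators in any case. Alternatives were a pseudocount of 10, no filter, median-ratio rescaling, the replicate number as a block, a fit of the compound and NC alone, the mean of the other groups as reference, adjustment over all contrasts, no fold threshold, and leaving out each replicate.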

Additional observations from a re-analysis of the deposited data

Results flagged for a closer look

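Compounds differed from each other in Herpud1 in 13 pairs, which is what drew attention to it, since each difference was tested directly in limma (adjusted p under 0.05 with a fold over 2). Of all tested genes, 2.14% to 12.3% were called in these pairs, and p-values were not adjusted over the pairs. Every pair held DZNep, Valproate or MS023, so the pairs share libraries and are not separate results. On the log2 scale, MS023 differed from Bromosporine by 1.32, from DZNep by 1.96 and from IOX1 by 1.12. OICR minus MS023 was -1.24 and Valproate minus MS023 -1.92. DZNep minus Chaetocin was -1.08 and minus CPTH2 -1.42, while Garcinol minus DZNep was 1.53 and UNC0379 minus DZNep 1.18. Valproate minus Chaetocin was -1.04, minus CPTH2 -1.39, minus Garcinol -1.50 and minus UNC0379 -1.14. The summed fibroblast markers were 1612 and 1874 with DZNep, 1357 and 1091 with Valproate and 1067 and 105 with MS023. In NC they were 528 and 1368, which overlaps the sums with Valproate and with MS023. Of the 5 tested, 5 changed upward with DZNep, 3 with Valproate (2 downward) and 2 with MS023 (3 downward). Thy1 among them was 358 and 303 with Valproate, 66 and 64 with DZNep and 12 and 11 in NC. The part of these markers was not tested.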

How the results depend on the processing

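Of the 12 alternatives, the fall of Herpud1 with DZNep kept its call in 11 and that with Valproate in 9, and no difference past the adjusted p changed sign. With the compound and NC libraries alone, 0 members were called with DZNep and 0 with Valproate, and the calls over all genes went from 1970 to 97 and from 912 to 75. That fit has fewer libraries to estimate the spread. With no fold threshold, 5 members were called with DZNep, 2 with Valproate and 7 between replicate numbers. With the mean of the other groups as reference, 1 member was called with MS023, and with median-ratio rescaling Calr was called in 1 pair of groups (the cause was not tested). In the main fit, Calr passed the adjusted p in 1 pair, DZNep minus Bromosporine. That difference was 0.96 (adjusted p = 0.010 in limma), just below a fold of 2. Leaving out 1 replicate at a time gave 0 to 1 members with Valproate, 0 without Valproate replicate 2 or NC replicate 1, on the assumption that a lone library varies like the other groups. With the replicate number as a block, 1 member was called with DZNep and 1 with Valproate as before. Calls over all genes went from 168 to 484 with MS023 and from 20 to 217 with IOX1. They went from 1970 to 2605 with DZNep and from 912 to 1487 with Valproate. The labels do not say that a number marks a shared batch, and the differences between numbers correlated over 0.1 in 51 of 55 pairs of groups (0.053 to 0.298) rather than in all, so the block was kept as an alternative. The main tests thus left the difference between numbers in the spread. This bears on members tied to the number that did not pass, such as Hspa5, Hsp90b1, Calr, Creld2 and Dnajb9. With DZNep, Creld2 and Dnajb9 were close to the threshold (adjusted p = 0.0639 and 0.0762 in limma). Their values with the block are not given here. All 55 correlations were positive, a hint from the data that the numbers share something. Taken as deviations from their group mean, all 22 libraries correlated best with their own number. With 2 libraries a group, that follows from the 55 positive values and adds nothing to them. Among differences not past the adjusted p, 95 values of members and 59 of other named genes changed sign in an alternative. Rescaling moved the median of all genes by at most 0.036. Depth is not known, so nothing is said of its limits.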
